A study of Mus musculus with 25 samples.

Results

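Livers of 20 mice given diethylnitrosamine (DEN), with or without later drug treatment, were set as a whole against livers of 5 mice given saline. All 25 libraries of the series entered the comparison. The genes described are those whose value in each of the 20 exposed livers lay outside the range of the saline livers, either above all 5 or below all 5. There were 148 such genes among the 12393 tested, 70 above and 78 below. Because they were picked on these values, their levels are a description, and the test over all genes is given beside them.

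Per the labels all mice were male C3H/HeJ, an inbred strain susceptible to hepatocellular carcinoma, and 5 weeks old at the start. DEN was injected at 25 mg/kg in 5 cycles, and the saline mice (labelled Untreated) received saline on the same schedule. After 1 month without injections, the exposed mice received the vehicles (DEN, 6 mice), caffeine at 50 mg/kg 3 times a week (DEN_CAF, 5 mice), sorafenib at 30 mg/kg 2 times a week (DEN_SOR, 4 mice) or both drugs (DEN_CAF_SOR, 5 mice) for 3 weeks. Mice without a drug received its vehicle. The labels name the source only as liver, so whether a piece held tumour, surrounding tissue or both is not given in the sources used here. Library preparation used a SMARTer kit on total RNA. Expression is given as FPKM, reads scaled by gene length and by library depth, computed from the recovered reads with one scale across all libraries. Fold changes are differences of log2(FPKM + 1), exposed minus saline, with their standard error (SE), and adjusted p-values are from limma unless another tool is named.

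DEN is taken up by hepatocytes and turned by cytochrome P450 enzymes into a species that alkylates DNA. Damaged cells stabilise p53, which switches on genes that halt the cell cycle. Liver tumours and injured liver in rodents are known for re-expressing fetal genes, for bile duct and progenitor markers, and for losing functions of mature hepatocytes. In mouse liver many hepatocyte genes also differ between males and females, because the timing of growth hormone pulses differs.

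Assigned reads ran from 14750278 to 21992613 per library. Xist, the RNA that coats the inactive X chromosome and marks female cells, had 22879, 29770 and 13370 reads in saline livers 3, 4 and 5, and at most 21 in any of the other 22 libraries. Ddx3y, a gene of the Y chromosome, gave 84, 30 and 48 reads there and 1028 and 1373 in saline livers 1 and 2. The 3 libraries therefore go against the label male, and the counts and the genes and lists described are given also against saline livers 1 and 2 alone (the pair). In the exposed library DEN 4, Ddx3y had 132 reads and Xist had 2, while the other exposed livers had at least 914 Ddx3y reads. Mitochondrially encoded genes took 9.58% to 34.8% of reads in the 8 exposed libraries numbered 3 or 4, and 5.65% to 9.81% in the other 12. Their share was 13.5% in saline liver 3 and 6.36% to 8.685% in the other saline livers. Albumin (Alb), the defining hepatocyte product, stood at 21490 to 32450 FPKM in saline and 15560 to 61120 in exposed livers. In bulk tissue, fewer cells of a type and less RNA per cell cannot be told apart.

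Against all 5 saline livers, 318 genes were higher in exposed liver (2.57% of those tested) and 508 were lower (4.1%). Against saline livers 1 and 2 the same fit called 23 higher (0.186%) and 54 lower (0.436%). Of the 318 higher genes 20 were also called there, and of the 508 lower genes 45. In the 25 fits that each left out 1 library, between 161 and 386 genes were higher and between 265 and 583 were lower. The lowest counts came without saline liver 3 and without saline liver 4. Over all tested genes 22.8% had an unadjusted p under 0.05 (12.5% against saline livers 1 and 2). On the recovered reads edgeR called 8.16% (0.775%) and DESeq2 called 11.6% (2.97%). Which direction held more genes depended on the scale. With scaling by library totals 381 genes were higher and 257 lower, and with totals that leave out mitochondrial genes 667 and 208. Scaling by median-of-ratios factors gave 337 higher and 479 lower. The median log2 fold change over all tested genes was -0.05 with the main scale, 0.02 with library totals and 0.08 without mitochondrial genes, a shift of 0.13 from the main scale.

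The 148 genes outside the saline range in every exposed liver make up 1.19% of the tested genes. The 70 above are 0.565% and the 78 below are 0.629%. Of the 70, 64 were called higher by limma, and of the 78, 74 were called lower. For a further 57 genes 19 of the 20 exposed livers lay above, and for 91 genes 19 lay below. At the edge of the rule, Dennd5a had 3.795 FPKM in its highest saline liver and 3.798 in its lowest exposed liver, while H2-M2, just outside, had 0.115 and 0.113. Under all 4 scalings at once, 58 of the 70 remained above but only 26 of the 78 remained below. The genes outside saline in every exposed liver that are printed with values belong to those 58 and 26, other than Dennd5a, Srxn1, Scd2, Klb, Cyp2g1 and Slco1b2. The genes above were low in saline liver, with a median of 0.627 FPKM against 2.83 in exposed liver. The genes below had a median of 11.9 FPKM in saline and 4.88 in exposed liver.

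**Figure D1:**
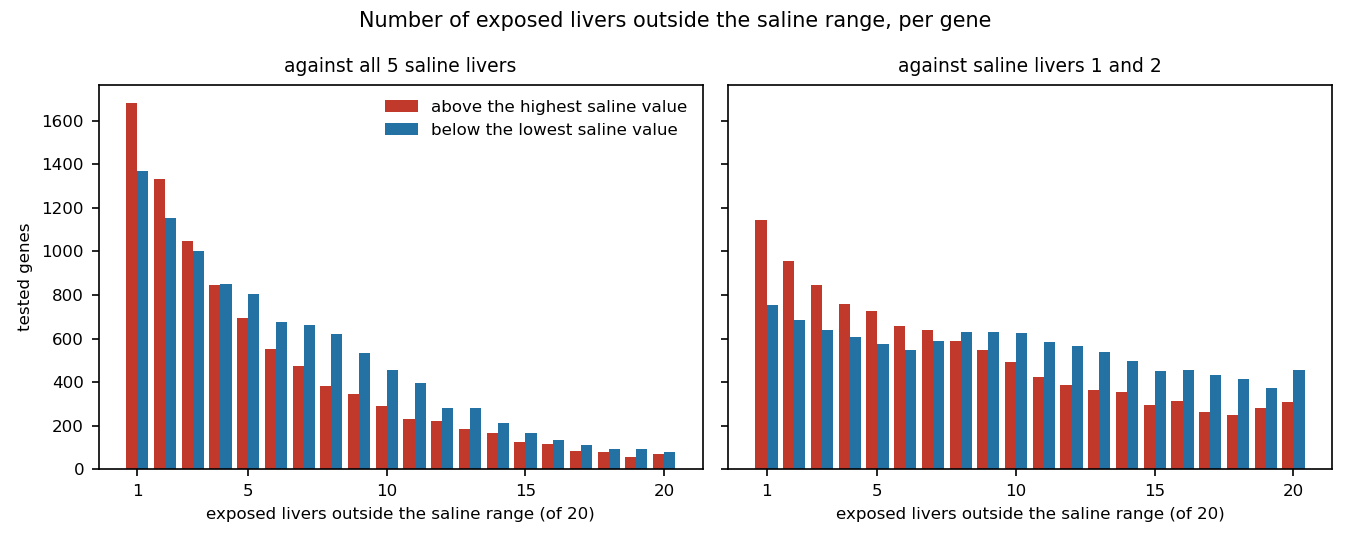
Number of tested genes (vertical axis) by how many of the 20 exposed livers lay above the highest (red) or below the lowest (blue) saline value, against all 5 saline livers (left) and saline livers 1 and 2 (right). At 20 livers the bars reach 70 and 78 on the left and 310 and 457 on the right.

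Fetal and tumour-associated genes formed the most visible group among the genes above. H19, an imprinted RNA that is abundant in fetal liver and shut down in the adult, was the gene with the widest gap. It stood at 0, 0.188, 0.678, 0.174 and 0.878 FPKM in saline livers 1 to 5. In exposed livers the lowest value was 4.20, the median 21.7 and the highest 1179, in DEN 4. All exposed livers thus lay above saline, and 1 exposed liver lay far above the other 19. Its log2 fold change was 4.27 (SE 0.79, adjusted p = 0.00224), and 3.98 without DEN 4 (adjusted p = 0.000142). With saline livers 1 and 2 alone it was 4.58 (SE 1.26, adjusted p = 0.116), a similar size that did not pass the test. On GRCm39 the gene lies on chr7:142129262-142131886, minus strand. A small RNA listed inside it on the other strand, ENSMUSG00002076121, moved with it (3.79, SE 0.82, adjusted p = 0.00723). Counting may not have used strand (not given in the sources used here), in which case reads of the pair cannot be told apart.

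Of the 19 tested members of a list of fetal and liver tumour markers, 10 were higher and 0 lower in exposed liver, with a median log2 fold change of 1.22. Over all tested genes the share called higher was 2.57% and the median -0.05. The list was drawn up with earlier results of these data known. Its median was 1.30 with only the libraries numbered 3 and 4, saline and exposed, and 0.66 without them. Against saline livers 1 and 2 it was 1.12. There 0 of 19 passed with limma or edgeR, 10 had an unadjusted p under 0.05 (12.5% of all tested genes), and DESeq2 called 10 (2.97%). Members outside the saline range in every exposed liver were H19, Spp1, Cd63, Epcam, Tspan8, Golm1, Afp and Scd2, the last not under every scaling. Spp1 encodes osteopontin, a secreted protein of bile duct cells and tumours. It stood at 10.3, 10.3, 7.45, 5.43 and 11.2 FPKM in the saline livers and at 13.99 to 151 in the exposed livers, with a median of 42.6 (log2 fold change 2.30, SE 0.40, adjusted p = 0.00137). Cd63, a tetraspanin of late endosomes and exosomes, had 1.42 to 2.22 FPKM in saline and 3.84 to 100.3 in exposed livers (2.17, SE 0.45, adjusted p = 0.00537). Epcam, an adhesion molecule of bile ducts and progenitor cells, had 0.139 to 0.554 FPKM in saline and 0.737 to 6.14 in exposed livers (1.40, SE 0.27, adjusted p = 0.00306). The highest Cd63 value again came from DEN 4, whereas the highest Spp1 values did not. Against the pair Spp1, Cd63 and Epcam stood at 2.08, 2.36 and 1.40, of like size but not called (adjusted p = 0.155, 0.155 and 0.152).

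Afp, the fetal counterpart of albumin and a serum marker of liver cancer, lay above saline in all exposed livers yet was not called. It had 0.105 to 0.302 FPKM in saline liver. The exposed values ran from 0.349 to 147, with a median of 0.819. DEN 4 held the highest value, far above the other 19, and the log2 fold change of 1.22 (SE 0.70) had an adjusted p of 0.308. Without DEN 4 it was 0.92 and still not called (adjusted p = 0.244). Golm1, a Golgi protein raised in liver cancer, also lay above saline in all exposed livers, with 0.349 to 0.521 FPKM in saline, 0.677 to 25.8 in exposed livers, and its highest value in DEN 4. Its adjusted p was 0.160 with all libraries and 0.0131 without DEN 4 (log2 fold change 0.72), so that unlike Afp it passed once that liver was left out. Against the pair Afp and Golm1 stood at 1.27 and 0.92, neither called (adjusted p = 0.655 and 0.539).

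Markers of bile duct and progenitor cells were higher as a list. Of 15 tested members 11 were higher and 0 lower, with a median of 0.96, beside 2.57% and -0.05 over all tested genes. The higher members included Krt19, Krt18, Krt8, Sox9, Sox4, Cdh1, Cldn7 and Muc1. Krt19, a keratin of bile duct cells, had 0.0762 to 1.14 FPKM in saline and 0.955 to 12.96 in exposed livers, a small overlap that leaves 18 of 20 exposed livers above (1.54, SE 0.37, adjusted p = 0.0131, and 1.82, adjusted p = 0.162, against the pair). The summed level of the list ran from 212 to 286 FPKM in saline livers and from 312 to 880 in exposed livers, with no overlap. Most of that sum was Krt18 and Krt8, with means of 140.6 and 88.34 FPKM in saline and 293.1 and 170.2 in exposed livers. The sum therefore mostly follows these 2 keratins, which were already abundant in saline liver. It says little of the low members or of bile duct cells. The median against saline livers 1 and 2 was 0.89. There 0 of 15 passed with limma, 10 had an unadjusted p under 0.05, edgeR called 1 and DESeq2 called 7. Of all tested genes 12.5% had such a p in limma there, edgeR called 0.775% and DESeq2 called 2.97%.

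Genes driven by p53 rose in part. Of 20 tested members of a p53 target list 5 were higher: Cdkn1a, Phlda3, Ephx1, Bax and Ccng1. The Ephx1 call held in 17 of the 25 fits that each left out 1 library. The list median was 0.29, against -0.05 over all tested genes, of which 2.57% were called higher. Cdkn1a, the cell-cycle inhibitor p21, had 0.458, 1.81, 1.14, 1.56 and 1.32 FPKM in saline livers 1 to 5. Its exposed values ran from 3.31 to 82.2 with a median of 10.4, the highest being DEN 1. All exposed livers lay above the saline range (2.40, SE 0.40, adjusted p = 0.000865, and 2.52, adjusted p = 0.0764, against saline livers 1 and 2). Phlda3, an inhibitor of Akt signalling, had 0.181 to 1.18 FPKM in saline and 1.22 to 7.09 in exposed livers (1.31, SE 0.21, adjusted p = 0.000465, and 1.35, adjusted p = 0.0625, against the pair). The margin there was narrow, set by saline liver 2 and DEN_SOR 4. With saline livers 1 and 2 alone, 0 of the 20 p53 targets passed with limma or edgeR. There 5 had an unadjusted p under 0.05 and DESeq2 called 3, beside 12.5% and 2.97% of all tested genes. Against all 5 saline livers, 0 of 20 tested genes of alkylation and base damage repair passed with limma or edgeR. Of them 2 had an unadjusted p under 0.05 and DESeq2 called 1. Their median was -0.01, and 0.05 with library totals. Over all tested genes edgeR called 8.16% and DESeq2 called 11.6% against all 5, and 22.8% had such a p in limma.

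Interferon-stimulated genes, which viral RNA or self nucleic acids can switch on, were higher in part. Of 37 tested members 12 were higher and 0 lower, with a median of 0.50 and 36 of 37 positive. Over all tested genes 2.57% were higher and the median was -0.05. Oas1g, an oligoadenylate synthetase of the antiviral RNA degradation pathway, had 1.78, 1.21, 1.65, 1.41 and 2.02 FPKM in the saline livers. The exposed livers held 4.19 to 12.1, with a median of 7.32. The groups were apart by more than the whole saline range (1.67, SE 0.16, adjusted p = 1.1e-06), and the call held against saline livers 1 and 2 (1.74, SE 0.26, adjusted p = 0.00168). Irf7, the transcription factor that amplifies interferon production, had 13.1 to 18.5 FPKM in saline and 20.8 to 67.9 in exposed livers (1.27, SE 0.20, adjusted p = 0.000413). Usp18, which damps the interferon receptor, had 3.81 to 7.81 in saline and 8.39 to 32.7 in exposed livers (1.19, SE 0.20, adjusted p = 0.000844). Ifi44 was likewise outside the saline range in all exposed livers (1.06, SE 0.17, adjusted p = 0.000433). Oas1a and Ifi27l2b were above all saline livers in 19 of 20. Of the 12 members, Oas1g was the one called by limma against saline livers 1 and 2, where the list median was 0.55 and DESeq2 called 7. All tested genes had a median of -0.05 there, and DESeq2 called 2.97% of them. Irf7, Usp18 and Ifi44 stood there at 1.19, 1.14 and 1.04 (adjusted p = 0.0852, 0.0891 and 0.0744).

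Promoters of 3 of the higher interferon genes are shown because they hold the letters of the element that interferon-activated factors are known to bind. The element was searched as GAAA, any 2 bases, then GAAA, on both strands (on the other strand it reads TTTC, any 2 bases, then TTTC), in the 250 bases before and 50 after each gene's start, from RefSeq on GRCm38.p6. Capitals mark matches, which may overlap.
Oas1g, chr5:120887614-120887673, minus strand, ending at the base before the start: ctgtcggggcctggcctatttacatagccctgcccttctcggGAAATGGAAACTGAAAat
Oas1a, chr5:120907526-120907585, minus strand, ending at the base before the start: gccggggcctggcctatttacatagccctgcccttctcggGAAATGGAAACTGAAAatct
Ifit1, chr19:34640769-34640828, plus strand, ending 60 bases before the start: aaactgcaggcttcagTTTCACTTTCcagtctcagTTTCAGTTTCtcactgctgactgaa

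The 2 Oas1 promoters shared an unbroken run of 56 bases that holds the element, and reads of these closely related genes could be split between them in counting. The element was present in 3.44% of 32851 promoters and in 16 of the 27 list members with a promoter entry. Among the 7 called members with an entry, 3 held it. Of the genes above saline in every exposed liver, 2 of 47 with an entry held it (4.26%), against 3.75% of tested genes. A match describes the letters and is not a measured binding site.

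Further genes with the widest gaps belong to no single function. Cib3, a calcium and integrin binding protein, had 4.23, 2.81, 3.10, 0.365 and 1.29 FPKM in the saline livers and 8.37 to 66.9 in exposed livers, with a median of 24.3. It was called with all saline livers (3.11, SE 0.39, adjusted p = 3.06e-05) and with saline livers 1 and 2 (2.55, SE 0.57, adjusted p = 0.0419). It stands in the list of genes higher in male liver, and the saline livers without Xist reads held 4.23 and 2.81. Anxa13, an annexin of epithelial membranes, went from 0.258 to 1.03 FPKM in saline to 1.87 to 17.5 in exposed livers (2.06, SE 0.28, adjusted p = 6.52e-05, and 2.03, adjusted p = 0.0316, against saline livers 1 and 2). Tuba8, an alpha tubulin, behaved alike, with 0.281 to 1.28 against 1.65 to 13.97 FPKM (1.67, SE 0.27, adjusted p = 0.000571, and 1.92, adjusted p = 0.0316).

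Several of these genes were almost silent in saline liver. Gldn, gliomedin, which gathers sodium channels at nodes of nerve fibres, had 0.0152 to 0.153 FPKM in saline and 1.00 to 9.67 in exposed livers (1.70, SE 0.26, adjusted p = 0.000363). Tinag, a basement membrane protein of kidney tubules, had 0 reads in 4 saline livers, 0.0738 FPKM in the other, and 0.486 to 1.91 in exposed livers (0.95, SE 0.12, adjusted p = 3.06e-05). Mmp7, matrilysin, a metalloproteinase of bile duct and tumour epithelium, had 0.1199 to 0.463 FPKM in saline and 0.941 to 58.6 in exposed livers (2.93, SE 0.53, adjusted p = 0.00176). Sftpd, the collectin surfactant protein D, had 0.0795 to 0.252 in saline and 0.621 to 10.1 in exposed livers (1.71, SE 0.32, adjusted p = 0.00211). Lrtm2, Lysmd2, Ccdc120 and the nuclear envelope protein gene Tmem43 complete the genes with the widest gaps, with log2 fold changes of 1.53, 1.23, 1.29 and 1.09. Of the genes in this paragraph, Tinag and Tmem43 were also called against saline livers 1 and 2, with adjusted p-values of 0.0164 and 0.00208. Gldn, Mmp7 and Sftpd stood there at 1.75, 2.75 and 1.77 (adjusted p = 0.0601, 0.155 and 0.130). The log2(FPKM + 1) scale understates the change of genes this low.

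**Figure D2:**
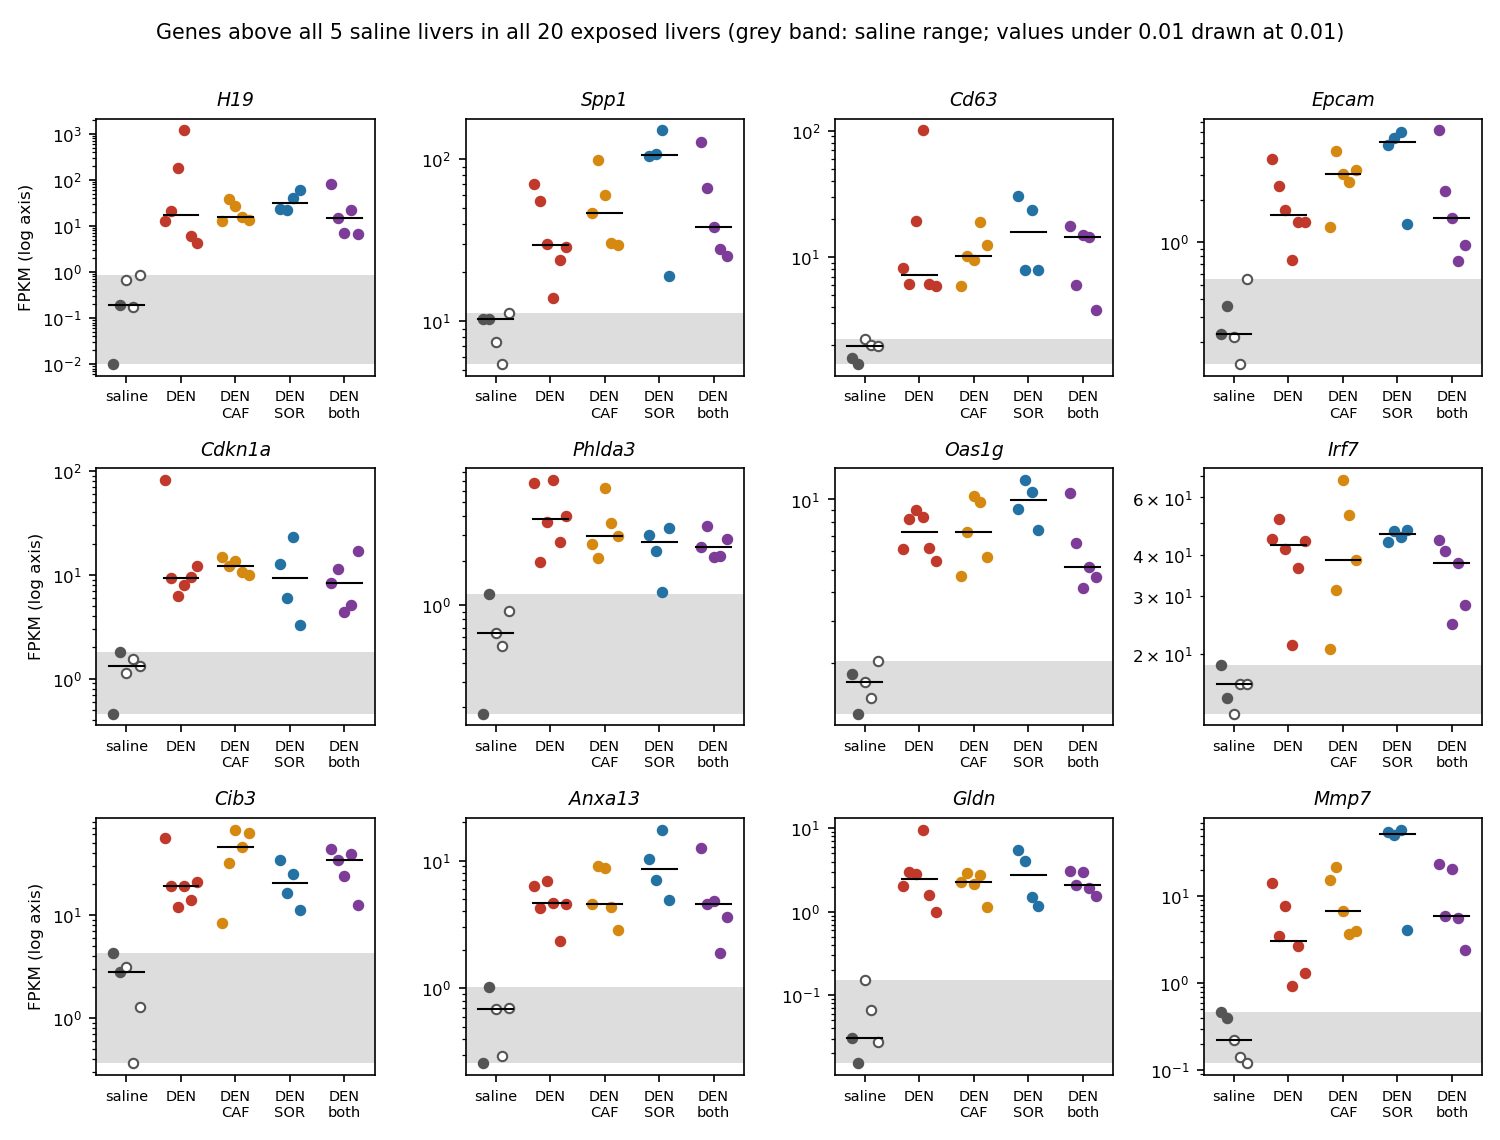
FPKM (log axis) per liver of 12 genes above the saline range in all 20 exposed livers, by group. Bars mark group medians, open points saline livers 3 to 5, and every coloured point lies above the grey saline band, from 4.20 FPKM upward for H19.

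Among the genes below, the widest gaps belonged to pseudogenes of the major urinary proteins (Mup), pheromone carriers that male liver makes in quantity from a cluster on chromosome 4. Mup-ps13 had 47.7, 42.3, 52.3, 70.2 and 67.3 FPKM in the saline livers. In exposed livers it ran from 0 to 11.99 with a median of 1.56 (-4.30, SE 0.43, adjusted p = 1.15e-06, and -4.01, adjusted p = 0.00583, against saline livers 1 and 2). Mup-ps1 had 5.72, 3.25, 7.96, 3.08 and 6.94 FPKM in saline and at most 0.689 in exposed livers (-2.37, SE 0.16, adjusted p = 4.78e-09). Mup-ps2, Mup-ps10 and Mup-ps14 were likewise below saline in every exposed liver, by -3.52, -4.22 and -2.74. All 5 were called against saline livers 1 and 2 as well. For Mup-ps13 and Mup-ps1 the saline livers with and without Xist reads lay together, and the exposed livers lay far under both. Between the nearest saline and exposed livers the gap in log2(FPKM + 1) was 1.74, 1.27 and 0.97 for Mup-ps13, Mup-ps1 and Mup-ps2. It was smaller for Mup-ps10 and Mup-ps14, at 0.57 and 0.46.

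The Mup genes that encode proteins did not follow this form. Of 19 tested, 4 were called lower and 0 lay below all 5 saline livers, although 10 lay below saline livers 1 and 2. Their summed level was 38850 and 30800 FPKM in saline livers 1 and 2 and 1267, 3221 and 6327 in saline livers 3 to 5. Exposed livers ranged from 122 to 21630, with a median of 5802. Exposed livers were thus below saline livers 1 and 2 and overlapped saline livers 3 to 5. Of 8 Mup pseudogenes 7 were called lower and 5 were below all saline livers, with a summed level of 156 to 409 FPKM in saline and 0.759 to 292 in exposed livers. Over all tested genes 4.1% were called lower, 0.629% lay below all 5 saline livers and 3.69% lay below saline livers 1 and 2. Mup genes and pseudogenes are near-identical, so reads could be assigned among them in ways that the deposited values do not show. Chromosome 4 held 11 of the 78 genes below (14.1%), 5 of them Mup pseudogenes, against 6.36% of tested genes.

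The other genes below with the widest gaps belong to no single function. Rfx4, a transcription factor of cilia and brain development, had 2.65, 2.08, 5.35, 3.40 and 5.18 FPKM in saline and 0.0112 to 0.641 in exposed livers (-1.79, SE 0.14, adjusted p = 3.17e-08). Camk1d, a calcium and calmodulin dependent kinase, had a tight saline range of 6.37 to 7.17 FPKM, and exposed livers held 1.09 to 3.16 (-1.33, SE 0.12, adjusted p = 3.42e-07). Gna14, a G protein alpha subunit, had 1.33 to 3.91 in saline and 0.0154 to 0.779 in exposed livers (-1.22, SE 0.13, adjusted p = 4.36e-06). These 3 were also called against saline livers 1 and 2, by -1.35, -1.34 and -1.58. Nxpe2 fell by 1.56 (SE 0.13, adjusted p = 4.23e-08), with 3.63 to 6.85 FPKM in saline and 0.232 to 1.89 in exposed livers. Dct, dopachrome tautomerase, an enzyme of melanin synthesis, had 2.17 to 7.99 FPKM in saline and 0 to 1.33 in exposed livers. Pdk1, a kinase that holds back pyruvate dehydrogenase, had 10.6 to 13.1 FPKM in saline and 2.12 to 8.05 in exposed livers (-1.18, SE 0.15, adjusted p = 3.06e-05). Nxpe2, Dct and Pdk1 were also called against the pair, by -1.74, -1.24 and -1.04. Mmd, Mfsd4b1 and Pbld1 had wide gaps at smaller changes of -1.05, -0.93 and -0.78, and these 3 did not pass against saline livers 1 and 2.

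Genes of the growth hormone and insulin-like growth factor axis were lower in part. Of 17 tested, 6 were lower and 0 higher, with a median of -0.36: Prlr, Lifr, Igfals, Ghr, Stat5b and Stat5a. The share called lower over all tested genes was 4.1%, with a median of -0.05. Lifr, the receptor of leukaemia inhibitory factor, had 33.3, 62.8, 24.4, 32.9 and 45.6 FPKM in saline and 7.82 to 23.7 in exposed livers (-1.32, SE 0.22, adjusted p = 0.000774, and -1.59, adjusted p = 0.0208, against saline livers 1 and 2). Igfals, the subunit that keeps IGF1 in the circulation, had 32.2 to 54.4 FPKM in saline and 2.89 to 27.4 in exposed livers (-1.22, SE 0.30, adjusted p = 0.0159, and -1.20, adjusted p = 0.280, against the pair). Its call was lost without saline liver 5 only, of the 25 libraries left out in turn. Both genes lay below saline in every exposed liver, and Lifr was the axis member called against saline livers 1 and 2.

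Klb, Cyp2g1 and Slco1b2 were below saline in every exposed liver with the main scale but not under every scaling. Klb, the co-receptor through which FGF21 and FGF15 act on liver, had 4.29 to 5.59 FPKM in saline and 0.628 to 3.79 in exposed livers (-0.96, SE 0.16, adjusted p = 0.00075, and -0.97, adjusted p = 0.0811, against the pair). Cyp2g1, a cytochrome P450, had 9.22 to 24.5 in saline and 0.197 to 7.96 in exposed livers (-1.74, SE 0.32, adjusted p = 0.00211, and -1.43, adjusted p = 0.198, against the pair). Slco1b2, an uptake transporter for bile acids and drugs, had 174 to 239 FPKM in saline and 6.53 to 172 in exposed livers. It was not called (adjusted p = 0.124) until DEN 4, its lowest liver, was left out (-0.91, adjusted p = 0.0135). Against the pair it stood at -1.30 (adjusted p = 0.444).

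**Figure D3:**
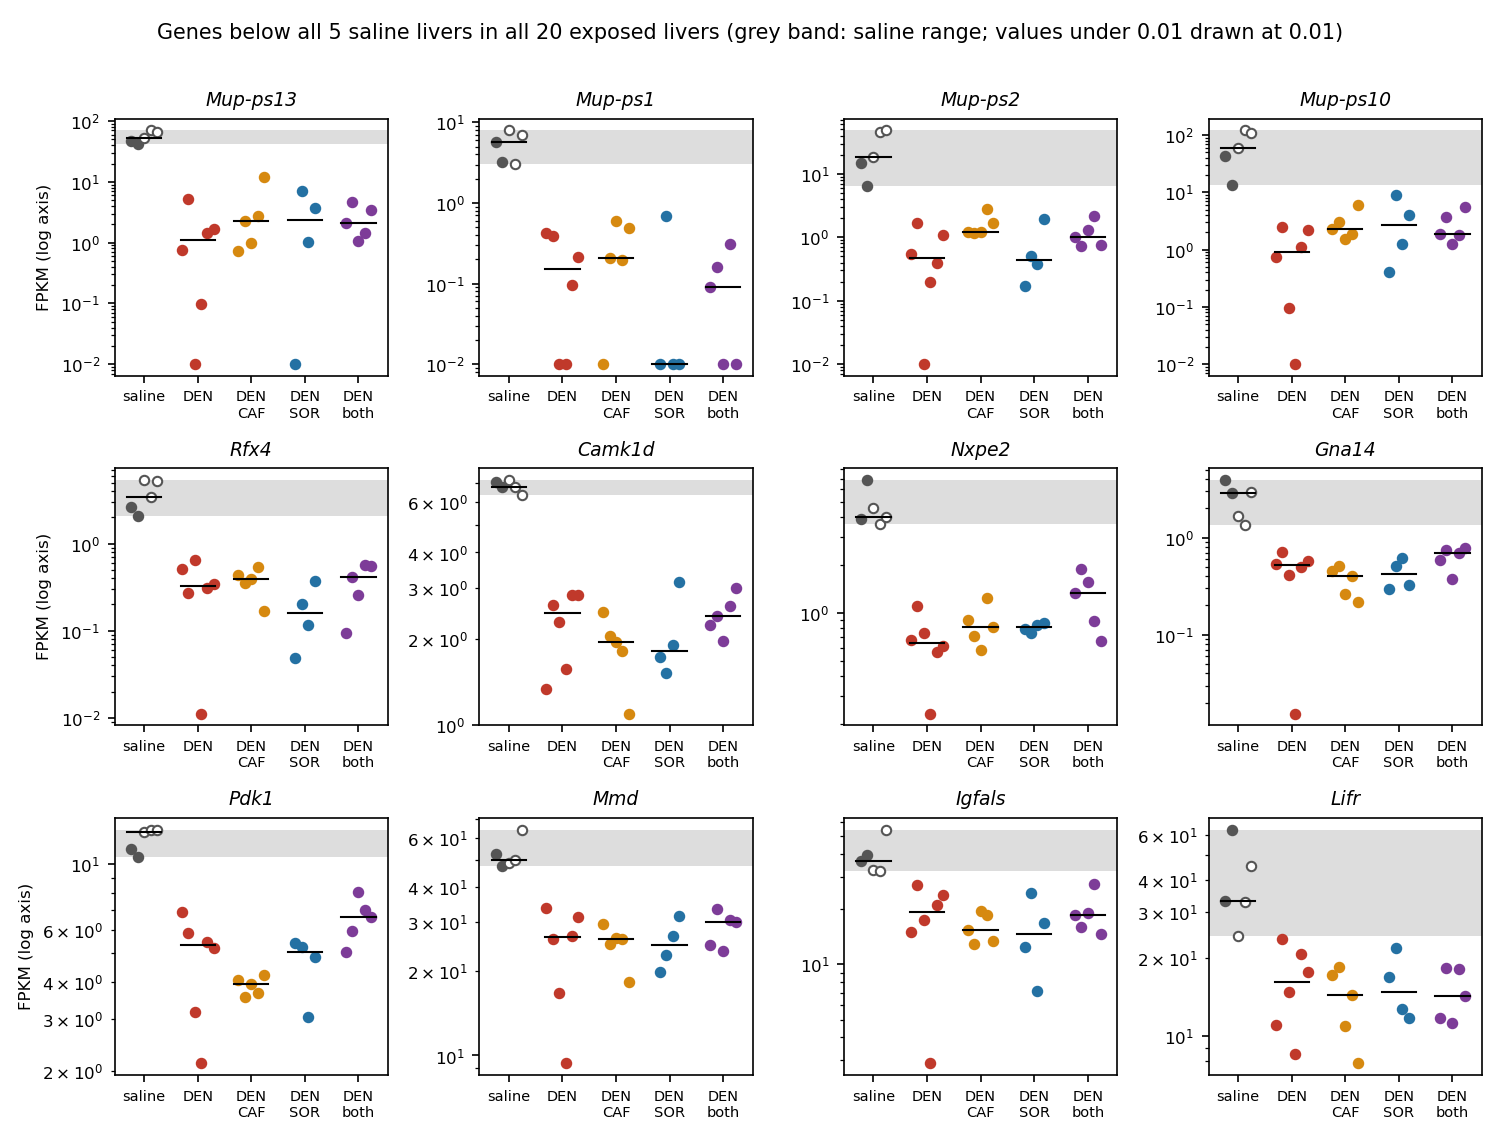
FPKM (log axis) per liver of 12 genes below the saline range in all 20 exposed livers, by group. Bars mark group medians, open points saline livers 3 to 5, and every coloured point lies below the grey saline band, at most 0.689 FPKM for Mup-ps1 against 3.08 or more in saline.

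None of the 148 genes was called different between the drug groups. A test for any difference among DEN, DEN_CAF, DEN_SOR and DEN_CAF_SOR called 0 of 12393 genes with limma and 0 with edgeR. At an unadjusted p under 0.05 limma gave 459 genes (3.7%) and edgeR 557 (4.49%). Of the 70 genes above, 4 were under that value in limma, and of the 78 below, 1. With edgeR 10 of the 70 and 2 of the 78 were under it, a larger share of the genes above than of all genes. Same-numbered livers of different exposed groups deviated from their group means together in 22 of 27 pairs (correlation over 0.1), against 29 of 122 pairs with other numbers. With the replicate number as a term the test again called 0 genes, with 555 at an unadjusted p under 0.05 (4.48%). The median log2 difference from saline of the genes above was 0.99 in DEN, 1.02 in DEN_CAF, 1.19 in DEN_SOR and 0.85 in DEN_CAF_SOR. For the genes below it was -0.91, -0.71, -0.82 and -0.74. Each of these group values shares the 5 saline livers. H19 medians were 16.97 FPKM in DEN, 15.6 in DEN_CAF, 31.3 in DEN_SOR and 14.5 in DEN_CAF_SOR, with overlapping ranges. For Camk1d they were 2.46, 1.94, 1.81 and 2.41, again overlapping. No test was made that these groups are alike.

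Against saline livers 1 and 2 alone, 310 genes lay above in every exposed liver (2.5%) and 457 below (3.69%), where the range to be outside of is that of 2 livers instead of 5. Against saline livers 3, 4 and 5 the counts were 158 (1.27%) and 220 (1.78%). Of the 310, 22 were called, and of the 457, 50. Among the genes added there, those with the widest gaps included genes known to differ between the sexes. Cyp2a4, a steroid hydroxylase of female liver, had 0.203 and 0.325 FPKM in saline livers 1 and 2 but 300.4, 593 and 407 in saline livers 3 to 5. The exposed livers lay above the pair, from 15.6 to 1327 with a median of 50.1, and 1 of them lay above all 5 saline livers. Its log2 fold change was 0.58 (SE 1.16, adjusted p = 0.804) against all 5 and 5.60 (SE 1.03, adjusted p = 0.0108) against saline livers 1 and 2. Cyp2b9, also of female liver, had 0.151 and 0 FPKM in saline livers 1 and 2 and 5.36 to 110.5 in exposed livers. Its log2 fold change was -0.32 (adjusted p = 0.885) against all 5 and 4.38 (SE 0.85, adjusted p = 0.0164) against the pair.

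In the other direction, Mup9 had 681 and 2170 FPKM in saline livers 1 and 2, 3.52, 92.1 and 203 in saline livers 3 to 5, and 0.317 to 143.5 in exposed livers. Its log2 fold change was -6.90 (SE 1.06, adjusted p = 0.00208) against the pair and -4.02 (adjusted p = 0.0135) against all 5. Slc22a7, an organic anion transporter, and Sult5a1, a sulfotransferase, were lower against both sets, by -2.19 and -2.90 against the pair and by -1.46 and -1.80 against all 5. Gsta1, a glutathione transferase, rose against both, with 0.370 and 0 FPKM in the pair, 1.86 to 7.23 in saline livers 3 to 5 and 4.35 to 38.3 in exposed livers (3.67 and 2.59, adjusted p = 0.00209 and 0.000844). Ccnd1, cyclin D1, which drives cells into S phase, also rose against both, by 1.94 and 1.25 (adjusted p = 0.0158 and 0.00966). Slpi and mt-Ty passed no test against the pair, nor did Mup22 and Mup17.

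Other calls against all 5 saline livers reversed or shrank against the pair. Tff3, trefoil factor 3, was called higher against all 5 saline livers (2.55, SE 0.76, adjusted p = 0.0452) and stood at -0.42 against the pair, which held 109 and 554 FPKM while saline livers 3 to 5 held 12.2, 2.17 and 11.4. The Tff3 call held in 7 of the 25 fits that each left out 1 library. Cyp2c69 and Cyp2c40, P450 genes of female liver, were called lower against all 5 (-3.35 and -2.91) and stood at 0.75 and 0.36 against the pair, neither called. Sult3a1 kept its sign, from -3.29 to -0.25. Lpl, lipoprotein lipase, also did and went from 1.92 (adjusted p = 0.00122) to 0.58 (adjusted p = 0.472). The Y-linked genes Eif2s3y, Ddx3y and Uty, called higher against all 5, were at -0.16, -0.34 and -0.17 against the pair. For these genes the result rests on saline livers 3 to 5.

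**Figure D4:**
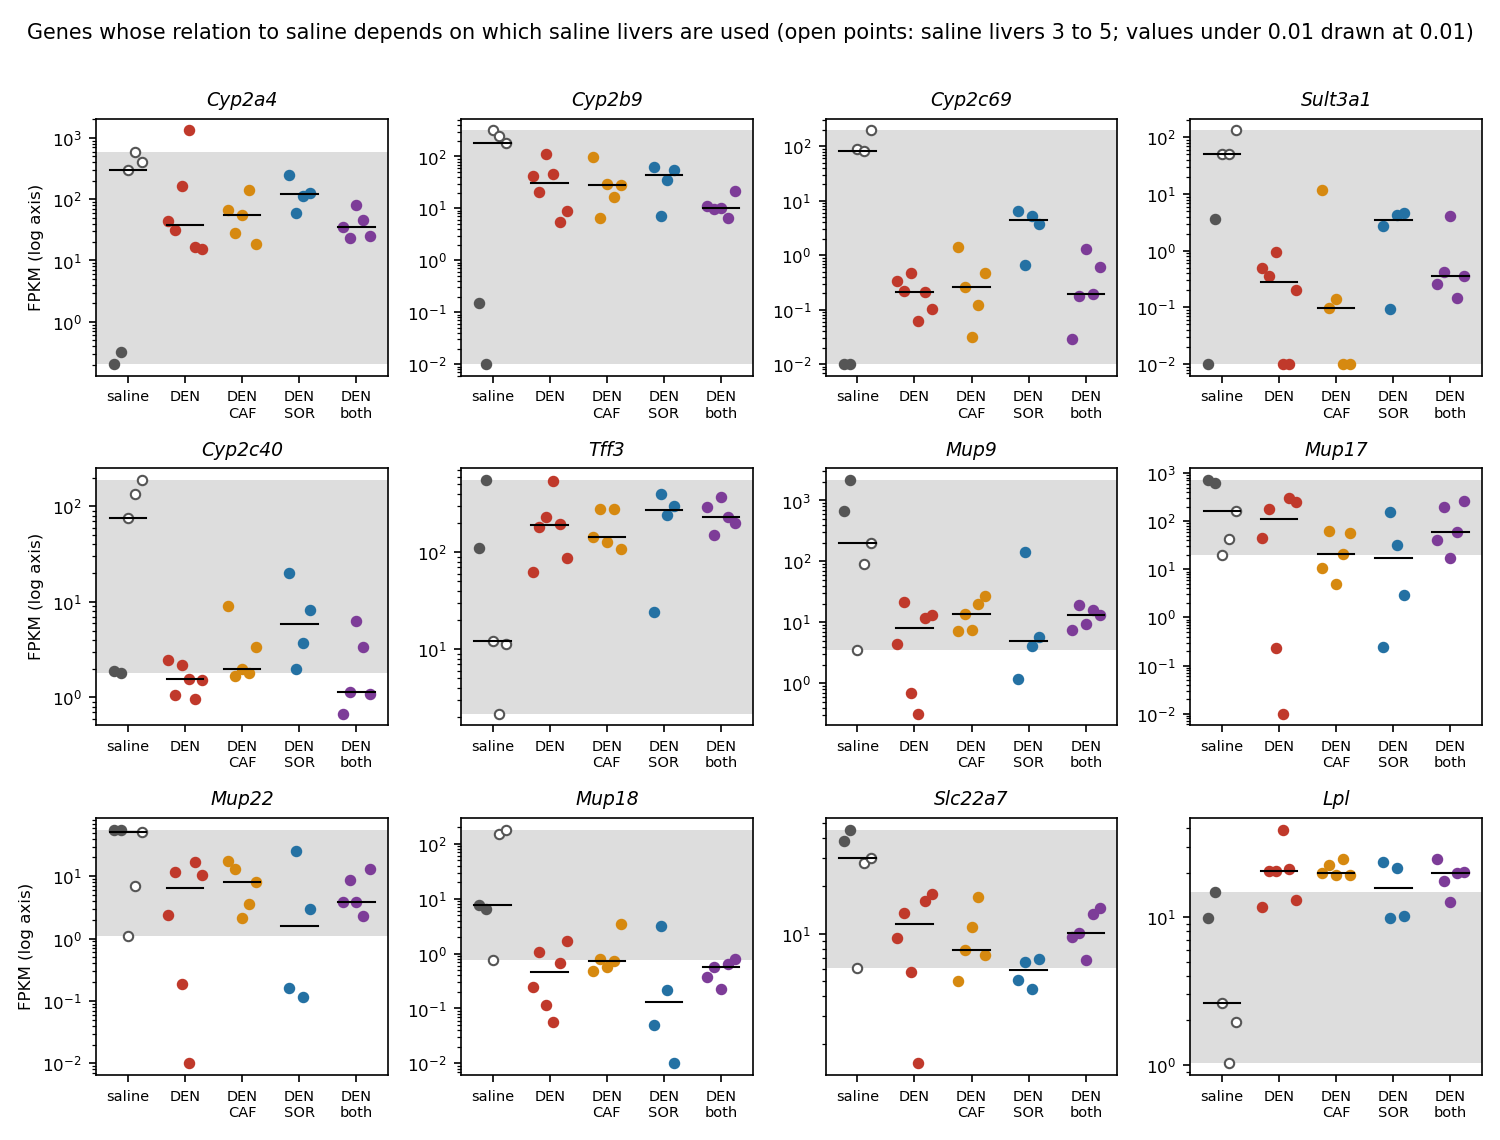
FPKM (log axis) per liver of 12 genes whose relation to saline differed with the saline livers used. Filled grey points are saline livers 1 and 2 and open points saline livers 3 to 5. For Cyp2a4 the exposed livers, at 15.6 to 1327 FPKM, lie above the filled points and mostly below the open ones.

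Whole lists showed the same dependence. Of 37 tested genes known as higher in female liver, 8 were lower and 0 higher against all 5 saline livers, with a median of -1.60. With edgeR 21 were lower, and DESeq2 called 23. Over all tested genes limma called 2.57% higher and 4.1% lower, edgeR called 8.16% and DESeq2 called 11.6%. Against the pair 2 were higher and 0 lower, with a median of 0.75, while edgeR called 3 and DESeq2 called 11. Of all tested genes 0.186% were higher and 0.436% lower there, and edgeR and DESeq2 called 0.775% and 2.97%. Of 35 tested genes known as higher in male liver, 2 were higher and 5 lower with all 5, where edgeR called 6 and DESeq2 called 7. Their median was -0.14 with all 5 (0.03 with totals that leave out mitochondrial genes). Against the pair it was -1.55, with 1 higher and 3 lower, and edgeR and DESeq2 called 1 each. The summed level of the female list ran from 121 to 4077 FPKM in saline and from 146 to 2206 in exposed livers.

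Among genes of mature hepatocytes, those of the pericentral zone were lower in part. Of 23 tested genes of that zone, the hepatocytes next to the central vein, 6 were lower and 0 higher, with a median of -0.66 and 21 of 23 negative. Glul, glutamine synthetase, had 152, 143, 109.7, 175 and 191 FPKM in the saline livers and 8.79 to 137 in exposed livers, of which 19 lay below saline (-1.39, SE 0.32, adjusted p = 0.0105). Tbx3, a Wnt-responsive repressor of that zone, was also below saline in 19 of 20 (-1.14, SE 0.24, adjusted p = 0.00526). Of 20 periportal genes 2 were higher and 3 lower. Bile acid genes had 2 of 25 lower (Slc10a1 and Klb) and a median of -0.40, and 33 hepatocyte identity genes had 2 lower (Ppara and Prox1) and a median of -0.27. Over all tested genes 4.1% were lower with a median of -0.05, so the share of identity genes called was near that of all genes. The Prox1 call held in 9 of the 25 fits that each left out 1 library. Against saline livers 1 and 2, limma called 1 member of these 4 lists, Sult5a1, and edgeR also called 1 periportal gene. Over all tested genes limma called 0.186% higher and 0.436% lower there, and edgeR called 0.775%. DESeq2 called 0 pericentral and 0 periportal genes there, 2 bile acid genes and 1 hepatocyte identity gene, against 2.97% of all tested genes. Glul and Tbx3 stood at -1.35 and -1.002 against the pair (adjusted p = 0.253 and 0.256).

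Immediate early genes, which respond within minutes to growth factors and stress, had 5 of 16 lower (Dusp1, Egr1, Zfp36, Junb and Ier2), with a median of -0.45. Of 20 clock genes Nr1d1, Nr1d2 and Bhlhe40 were lower and Cry1 was higher. Time of day at death is not given in the sources used here. Of 34 tested NRF2 targets, which detoxify electrophiles, 8 were higher, among them Gsta1, Gstm3, Gsta2 and Srxn1, with a median of 0.19. That list median was -0.10 with only the libraries numbered 3 and 4, and 0.45 without them. S100 and annexin genes had 6 of 19 higher, tubulins 3 of 12 (median 0.73), and MHC class II genes 2 of 5. Proliferation genes had 2 of 13 higher with limma (Ccnd1 and Cdkn2c) and a median of 0.43, whereas edgeR called 6 and DESeq2 called 7. These counts stand beside 2.57% of all tested genes called higher and 4.1% called lower with limma. Of all tested genes edgeR called 8.16% and DESeq2 called 11.6%.

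Most of these calls were lost against saline livers 1 and 2. There limma called 0 immediate early, 0 clock and 0 MHC class II genes, of which 8, 8 and 4 had an unadjusted p under 0.05. For the same 3 lists edgeR called 2, 0 and 0 and DESeq2 called 3, 3 and 3. The share of all tested genes called there was 0.186% higher and 0.436% lower with limma, 0.775% with edgeR and 2.97% with DESeq2. An unadjusted p under 0.05 in limma was reached there by 12.5%. Limma called Gsta1 of the NRF2 targets, Anxa13 of the S100 and annexin genes, Ccnd1 of the proliferation genes, and Tuba8 and Tubb4b of the tubulins. The list medians against the pair were -0.46 for immediate early genes, -0.06 for clock genes, 0.37 for NRF2 targets, 0.16 for S100 and annexin genes, 1.11 for tubulins, 1.14 for MHC class II and 0.59 for proliferation genes.

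**Figure D5:**
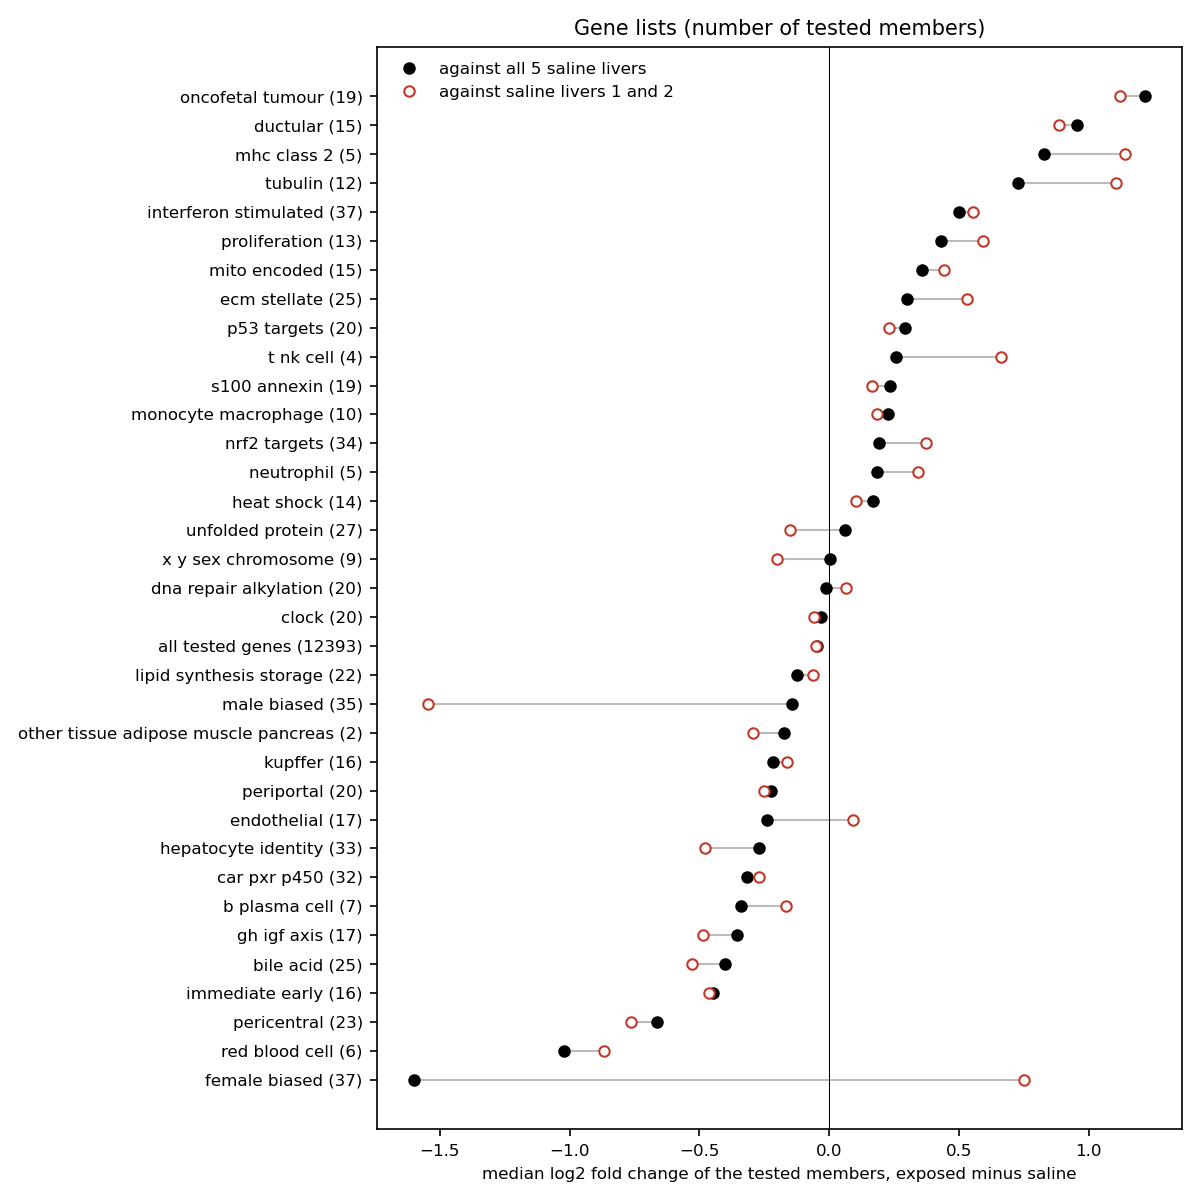
Median log2 fold change of the tested members of each gene list, exposed minus saline (horizontal axis), against all 5 saline livers (black) and saline livers 1 and 2 (red, open), with the number of tested members in brackets. The female list moves from -1.60 to 0.75 and the male list from -0.14 to -1.55, while the fetal and tumour list stands at 1.22 and 1.12.

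How many markers of other cell types passed depended on the list and the tool. Over all tested genes limma called 2.57% higher and 4.1% lower, edgeR called 8.16% and DESeq2 called 11.6%. An unadjusted p under 0.05 in limma was reached by 22.8%. Of 5 neutrophil, 10 monocyte and macrophage, 4 T and natural killer cell and 6 red blood cell markers, limma called 0. At an unadjusted p under 0.05 they gave 0, 3, 1 and 3, edgeR called 0, 1, 0 and 0, and DESeq2 called 0, 2, 0 and 1. Matrix and stellate genes had Col1a1 and Tagln higher and Fn1 lower of 25 tested, Kupffer cell genes had Mrc1 lower of 16, B and plasma cell genes had Ighm and Iglc2 lower of 7, and endothelial genes had Stab2 lower of 17. For the matrix and stellate genes edgeR called 6 and DESeq2 called 9, and 13 had an unadjusted p under 0.05 in limma. For Kupffer cell, B and plasma cell and endothelial genes edgeR called 1, 2 and 2 and DESeq2 called 1, 2 and 2. Against saline livers 1 and 2 limma and edgeR called 0 in these 8 lists, and DESeq2 called 2 matrix and stellate genes, 1 monocyte and macrophage gene and 1 T and natural killer cell gene. At an unadjusted p under 0.05 limma there gave 10 matrix and stellate, 3 endothelial, 2 T and natural killer cell, 1 monocyte and macrophage, 1 B and plasma cell, 0 neutrophil, 0 Kupffer cell and 0 red blood cell genes. Against that pair DESeq2 called 2.97% of all tested genes, and 12.5% had an unadjusted p under 0.05 in limma. The Col1a1 call held in 7 of the 25 fits that each left out 1 library. Single livers stood apart: the summed neutrophil markers ran from 4.06 to 33.1 FPKM in saline and from 6.17 to 443 in exposed livers, with the highest value in DEN 4 and a median of 10.4, while the fetal and tumour list reached 4593 in the same liver against a median of 373. The part of these cells in the results above was not tested.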

How the data were processed

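Liver RNA of 25 mice was measured. Reads were aligned with HISAT2 2.0.5 and counted with featureCounts 1.5.0-p3 against build GRCm39, per the submitters' processing notes. Neither strand setting nor annotation release is given in the sources used here. Each group has 1 deposited table with FPKM in its name, but each deposited column is a signal of whole reads divided by 1 size factor per library (100% of values whole within 0.01 read). Reads were recovered and FPKM computed from the listed gene length and TMM effective library sizes over all 25 libraries, because the authors normalised the tables separately and the mitochondrial share differed. The planned test assumed FPKM, so limma on FPKM stayed the main test.

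Testing was limited to the 24774 of 30524 genes present in all 5 tables and to FPKM of at least 1 in 5 or more libraries, which left 12393. Log2(FPKM + 1) values were fitted with limma 3.58.1 (R 4.3.3). The fit had 1 coefficient per group, and the contrast was the mean of 20 exposed libraries minus saline (eBayes with trend, two-sided, Benjamini-Hochberg at 0.05, 20 residual degrees of freedom). It was refitted without saline livers 3 to 5 (17 residual degrees of freedom). On the recovered reads edgeR 4.0.16 called 394 genes higher and 617 lower, and DESeq2 1.42.0 called 718 and 721. Titles number the mice, and p-values measure the spread between these mice. Chi-square per degree of freedom between libraries of a group was 19.0 to 423 over 51 pairs, so no library repeated another of its group. Pairs from different groups were not compared this way.

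On reads simulated with the real means and spread (12393 genes), the share of 1.5-fold changes called was 22% against 5 saline livers and 4% against 2. For 2-fold changes it was 72% and 30%, and for 4-fold changes 84% and 76%.

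The members and the 34 gene lists (719 genes, 590 tested) were chosen with earlier results of these data known. Named genes are the 14 each way with the widest gap to saline among separated and called genes (clone-named genes left out), 6 each way separated only from saline livers 1 and 2, up to 3 called members per list with the largest change, list members separated from all 5, and Alb, Xist and Ddx3y. ENSMUSG00002076121, Dennd5a, H2-M2 and called list members outside these rules were named after their values were seen, as was the Mup family taken by symbol. Xist passed the FPKM minimum in too few libraries to be tested.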

Additional observations from a re-analysis of the deposited data

Results flagged for a closer look

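Of 535 group values of the named genes, 38 held a liver far from the others of its group, its gap to the nearest taking most of the group's range on the log2(FPKM + 1) scale. Chance alone gives about 1 in 20 of such values. The values printed are FPKM, and highest and lowest refer only to the livers of the same group. No cause was tested. DEN 4 held the highest value of Lysmd2 at 5.72, Golm1 at 25.8, Ifi27l2b at 362.0, S100a11 at 266.0, Cdh1 at 42.0, Col1a1 at 2.78 and Fn1 at 106.0 and the lowest value of Gna14 at 0.0154, Glul at 8.79, Igfals at 2.89, Ddx3y at 1.34, Slco1b2 at 6.53 and Prlr at 0.824. That is 13 of the 38 in 1 liver. DEN 1 held the highest value of Cib3 at 55.9 and Cdkn1a at 82.2. DEN 3 held the highest value of Mup-ps14 at 0.203. DEN_CAF 1 held the highest value of Sult3a1 at 11.6. DEN_CAF 4 held the highest value of Sult5a1 at 5.08. DEN_CAF 5 held the highest value of Ly6d at 31.6, Mup18 at 3.51 and Srxn1 at 48.0. DEN_CAF_SOR 1 held the highest value of Ccdc120 at 2.79, Cdh1 at 13.2 and H2-Eb1 at 33.0 and the lowest value of Cyp2g1 at 2.67. DEN_CAF_SOR 3 held the highest value of Sult3a1 at 4.11. DEN_CAF_SOR 5 held the highest value of Tubb4b at 74.4. DEN_SOR 1 held the highest value of Lrtm2 at 11.3 and Slpi at 66.6. DEN_SOR 2 held the highest value of Mup-ps1 at 0.689 and Mup18 at 3.22. DEN_SOR 4 held the lowest value of Mmp7 at 4.07, Golm1 at 1.16, Epcam at 1.36 and H2-Eb1 at 4.22. Saline liver 3 held the lowest value of Slc22a7 at 6.07 and Cdh1 at 1.09. Saline liver 5 held the highest value of Tinag at 0.0738.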

How the results depend on the processing

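Counts are given as higher and lower calls, genes above and below saline in every exposed liver. Against all 5 saline livers, calls were 381 and 257 with library totals, 667 and 208 with totals that leave out mitochondrial genes, 718 and 721 with DESeq2, 494 and 911 with libraries 3 and 4 as a term, 86 and 262 in libraries 3 and 4 alone, 161 and 296 without them, and 128 and 248 against saline livers 3 to 5. Separated genes were 85 and 45 with library totals, 121 and 30 with totals that leave out mitochondrial genes, 106 and 86 with no filter, 40 and 60 with FPKM of 1 in 20 libraries, 838 and 1592 in libraries 3 and 4 alone, 249 and 372 without them, 7 and 7 with a margin of 1.5-fold, 127 and 169 with 19 of 20, and 158 and 220 against saline livers 3 to 5.

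Against saline livers 1 and 2, calls were 23 and 54. They were 33 and 26 with library totals, 51 and 21 with totals that leave out mitochondrial genes, 83 and 32 with pseudocount 0.1, 19 and 110 with no filter, 19 and 19 with FPKM of 1 in 20 libraries, 240 and 128 with DESeq2, and 99 and 168 without libraries 3 and 4. Separated genes, 310 and 457, were 646 and 142, 989 and 103, 558 and 534, 185 and 393, 592 and 830 with 19 of 20, 23 and 35 with the margin, and 560 and 739 without libraries 3 and 4, the first 4 pairs for library totals, totals that leave out mitochondrial genes, no filter and FPKM of 1 in 20 libraries. Fewer or more genes and livers enter some of these by construction, and for the rest the cause was not tested.

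Leaving out each library in turn gave 161 to 386 higher, 265 to 583 lower, 70 to 99 above and 78 to 128 below against all 5, with 111 of the 318 and 171 of the 508 calls present in every fit. Against saline livers 1 and 2 it gave 2 to 46, 13 to 78, 312 to 749 and 461 to 1195. The low calls, 2 and 13, came without saline liver 1, where the lone saline liver is assumed to vary like the other groups. With replicate number as a block, 436 genes were higher and 844 lower against all 5 (27 and 50 against the pair). Same-numbered saline and exposed livers had correlations of -0.291 to 0.478 (19 pairs, 5 over 0.1), and 20 of 81 pairs with other numbers were over 0.1. Saline liver 3 had 0.478 with DEN 3 and 0.378 with DEN_CAF 3. The saline deviations also hold the difference between saline livers 1 and 2 and saline livers 3 to 5. Whether the numbers pair these 2 sides therefore cannot be told from them. Among exposed groups 22 of 27 same-numbered pairs were over 0.1 (median 0.171, against -0.067 for other numbers). The test among exposed groups called 0 genes with edgeR, with the replicate block and with libraries 3 and 4 as a term, 3 alternatives chosen after seeing the data. Other calls printed in the report were lost when 1 saline liver was left out. These were Ccnd1, Tspan8 and Cdkn2c without saline liver 1, Gstm3 and Fn1 without saline liver 2, Iglc2 without saline liver 3, Igfals without saline liver 5, Mup9 without saline liver 1 or 2. The same held for Gsta2 without saline liver 2 or 5, Cdh1 without saline liver 3 or 4, Sult3a1 without saline liver 4 or 5, Bhlhe40 without saline liver 1, 2 or 4, Sult5a1 without saline liver 1, 2 or 5. It also held for Egr1 without saline liver 2, 4 or 5, Cyp2c69, Cyp2c40, Ddx3y, Uty and Mrc1 without saline liver 3, 4 or 5, Slpi, Ppara and Tagln without saline liver 1, 2, 3 or 4, Slc22a7 without saline liver 1, 2, 4 or 5, Scd2 and Slc10a1 without saline liver 1, 2, 3, 4 or 5.

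Of 4522 recomputed values of named genes, 4103 kept direction and side of the threshold, 401 lost and 10 gained the call, 2 had no adjusted p with DESeq2 and 6 reversed. Reversed against saline livers 1 and 2 were Tff3 (-0.42), Cyp2c69 (0.75), Cyp2c40 (0.36), Eif2s3y (-0.16), Ddx3y (-0.34) and Uty (-0.17). Depth limits genes near 0 FPKM.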
